A study of Canis lupus familiaris with 28 samples.

Results

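A set of 8 genes that mark regulatory T cells was followed in the blood of dogs with canine atopic dermatitis (AD dogs) and of healthy dogs: FOXP3, IKZF2, IKZF4, IL2RA, CTLA4, TNFRSF18, IL10 and ENTPD1. They were found on the array by gene name, and all 8 genes were present, with 14 of 43603 probes. Signals allowed 7 of the 8 genes and 11 of the 14 probes to be tested, among 30202 probes of the whole array. The 20 AD dogs and the 8 healthy dogs were privately owned animals of mixed breeds, both sexes and overlapping adult ages, and the AD dogs had visible skin signs when bled. Each dog gave 1 whole blood RNA sample according to the labels, labelled with Cy5. It was hybridized to a two-color array against 1 shared Cy3 reference, a pool of blood RNA from 13 other healthy dogs. Values below are log2 ratios of dog to reference, with the median of each array set to 0.

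Regulatory T cells are CD4+ T cells that restrain other immune cells. The transcription factor FOXP3 defines them, with the Ikaros family factors Helios (IKZF2) and Eos (IKZF4) as partners. They carry the high-affinity chain of the IL-2 receptor, CD25 (IL2RA), and the inhibitory receptor CTLA4, and they can act through the cytokine IL-10 and through CD39 (ENTPD1), an enzyme that breaks down extracellular ATP. None of these genes belongs to regulatory T cells alone: activated T cells also use IL2RA and CTLA4, and monocytes and B cells also use IL10 and ENTPD1. In allergy these cells are studied as a brake on the response to allergens. The study counted CD4+CD25+Foxp3+ cells by flow cytometry in mononuclear cells isolated from the dogs' blood, as a share of CD4+ lymphocytes. Those counts have another denominator and cell preparation than whole blood RNA, and they were not analysed here. In whole blood RNA, a change in the number of regulatory T cells and a change in the RNA of a gene in each cell cannot be told apart.

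The probes decide what each value can report, so those on which the results turn are shown, as held in the array files. The files place them on the canFam3 build, and a probe whose placed length exceeds its 60 bases spans an intron. FOXP3, IL10, ENTPD1 and TNFRSF18 had 1 probe each, at chrX:42344138-42344197 on the minus strand, chr7:5934601-5935589 on the minus strand across an intron, chr28:9311054-9311113 on the plus strand and chr5:56395238-56395297 on the minus strand. These 4 are written in lower case throughout:
FOXP3: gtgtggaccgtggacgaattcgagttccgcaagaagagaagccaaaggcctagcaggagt
IL10: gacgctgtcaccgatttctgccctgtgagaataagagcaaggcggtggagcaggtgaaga
ENTPD1: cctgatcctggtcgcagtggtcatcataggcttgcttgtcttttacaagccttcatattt
TNFRSF18: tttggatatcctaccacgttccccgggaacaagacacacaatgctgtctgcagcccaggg

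Both IL2RA probes spanned an intron, the brighter at chr2:29939926-29941057 and the dimmer at chr2:29939465-29939967 on the plus strand. They covered 42 positions in common, in capitals below, of which 41 were identical. The substitution was A39G, counted from the first base of the brighter probe:
IL2RA brighter: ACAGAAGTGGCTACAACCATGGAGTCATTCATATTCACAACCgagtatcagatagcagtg
IL2RA dimmer: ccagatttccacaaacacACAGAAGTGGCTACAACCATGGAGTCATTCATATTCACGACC

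The brighter IKZF2 probe, at chr37:20516262-20516321 on the minus strand, resembled probes of its relatives. Without gaps, an IKZF4 probe at chr10:357286-357345 on the plus strand shared 45 of 56 aligned bases with it (80.4%). A probe of IKZF3, the family member Aiolos of lymphocytes, shared 42 of 59 (71.2%). Capitals mark, in the relatives, the bases identical to the IKZF2 probe:
IKZF2 brighter: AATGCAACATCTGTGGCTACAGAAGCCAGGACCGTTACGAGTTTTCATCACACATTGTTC
IKZF4: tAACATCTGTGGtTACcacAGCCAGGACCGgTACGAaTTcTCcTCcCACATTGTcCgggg
IKZF3: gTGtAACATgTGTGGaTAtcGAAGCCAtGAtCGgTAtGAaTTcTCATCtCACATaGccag
The other IKZF2 probe, at chr37:20565611-20658488 across a large intron, shared 20 of 51 bases with the brighter one. Both CTLA4 probes lay on chromosome 37, at chr37:12653740-12653799 (brighter) and chr37:12652726-12652785 on the plus strand. The brightest IKZF4 probe lay at chr10:358894-358953, and a probe at chr10:347443-348775 spanned an intron. A further IKZF4 probe, at chr10:357258-357317, repeated 32 bases of the one shown.

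In healthy dogs 84.3% to 90.3% of all probes were well above background in the channel of the dog, against 51.7% to 87.5% in AD dogs. The 28 arrays filled 8 slides and 5 scan days, and no slide or scan day held both groups, so slide, scan day and disease cannot be told apart. The 6 arrays of scan day 5, all of AD dogs, had the lowest median signals and lay between 51.7% and 63.2% on this measure, where 1 AD array of scan day 4 stood at 60.2%. None of the 6 T cell markers was called in the limma fit, which called 0% of all probes. Of these markers 3 had log2 fold changes above 0 and 3 below, with a median of -0.0040. CD3D stood at -0.05, CD3G and LCK at -0.08 each and CD2 at 0.05. CD3E, a chain of the T cell receptor complex, had a log2 fold change of 0.28 (unadjusted p = 0.127). CD4, which canine neutrophils also carry, had one of 0.40 (unadjusted p = 0.0968). The log2 fold changes of red cell markers were above 0 for 3 of 3 genes, with a median of 0.54, and those of platelet markers below 0 for 4 of 4, with a median of -0.30. Neutrophil markers were above 0 for 3 of 3 genes, with a median of 0.18. The genes listed for NK cells that passed the filter, PRF1, GZMA and NKG7 but not NCR1, were below 0 for 3 of 3, with a median of -0.05. The other lists were mixed: CD8 T cell markers were above 0 for 1 of 2 genes, B cell markers for 3 of 5 and monocyte markers for 1 of 3. No gene of these lists had an unadjusted p under 0.05 in limma, beside 6.12% of all probes. The part of these cells in the values below was not tested.

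All members could be seen in blood, but not in every dog. CTLA4, IL2RA, ENTPD1, the brightest IKZF4 probe and the brighter IKZF2 probe were well above background in the channel of the dog on all 28 arrays. IL10 was too, although on 2 of the 20 AD arrays it was not well above background in the reference channel. FOXP3 was well above background in the channel of the dog in 8 of 8 healthy dogs and in 15 of 20 AD dogs. Of the 5 AD arrays where it was not, 4 belonged to scan day 5. In the reference channel FOXP3 was well above background on 8 of 8 healthy arrays and on 14 of 20 AD arrays. TNFRSF18, which encodes the costimulatory receptor GITR, was well above background in 12 of 20 AD and 5 of 8 healthy dogs. Its median signal was 61.3 in AD and 51.1 in healthy dogs, under the limit of 100 set by the signal filter, and it was left out of the test with 2 of the 4 IKZF4 probes.

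**Figure D1:**
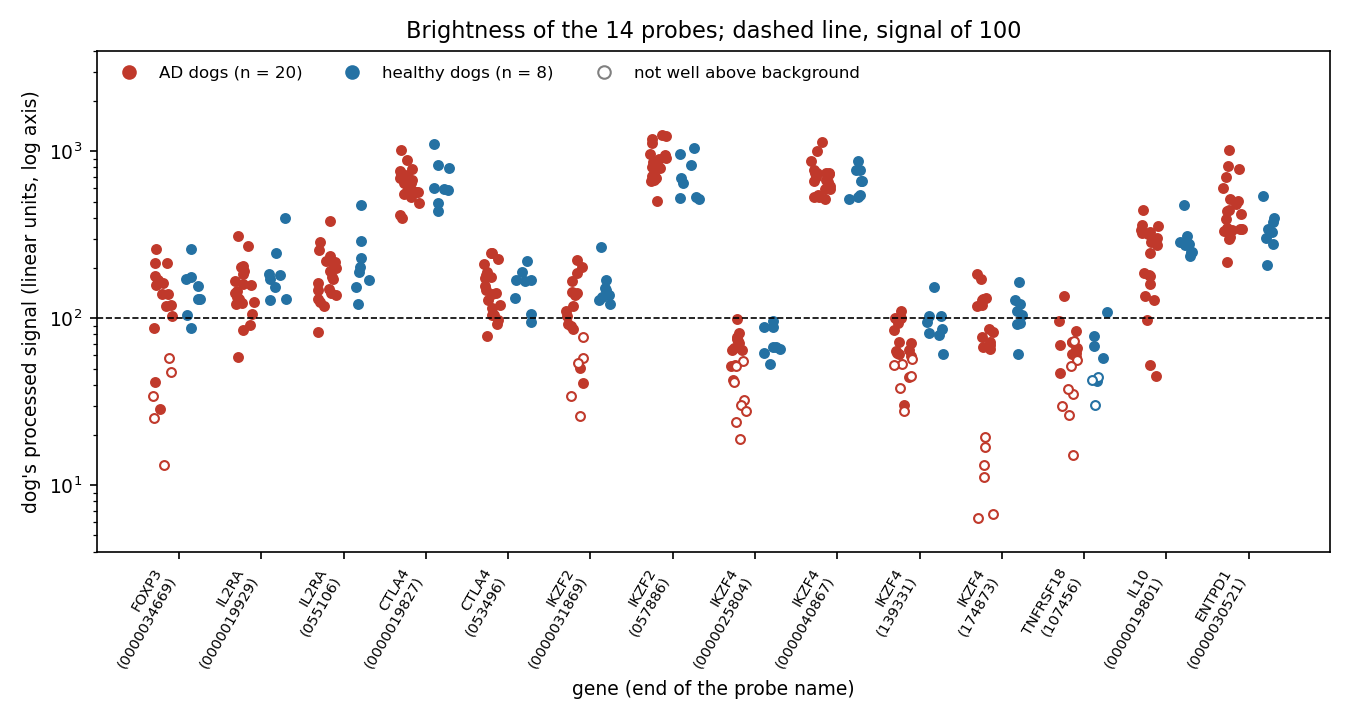
Processed signal of the dog's channel for the 14 probes in each of the 20 AD and 8 healthy dogs, on a log axis, with the end of the probe name in brackets. Open circles are spots not well above background, and the dashed line is a signal of 100. Most open circles belong to AD dogs, and TNFRSF18 and every IKZF4 probe but the brightest lie mostly under the line.

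The first question was whether any regulatory T cell gene differed between AD and healthy dogs. None of the 7 genes did at the adjusted p of 0.085 used by the study, nor at 0.05, with limma across 30202 probes, of which 0% were called at either threshold. At an unadjusted p under 0.05, limma called 0 of the 7 members and 6.12% of all probes (1.65% higher and 4.46% lower in AD dogs). The log2 fold changes of the 7 genes, AD minus healthy, ran from -0.09 to 0.29, with 4 above 0 and 3 below. Their median was 0.06, beside -0.01 for all probes tested. Of the 95% intervals of the 7 genes, that of FOXP3 reached farthest from 0, to 0.66. With array weights, limma called 2.81% of all probes and again none of the 7 members.

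FOXP3, the transcription factor that defines the lineage, had the largest difference of the 7 tested members. Its log2 ratio ran from -0.47 over a median of 0.34 to 1.89 in AD dogs, and from -0.21 over 0.13 to 0.51 in healthy dogs. The groups overlapped: 7 of 20 AD dogs lay above every healthy dog and 1 lay below them all. AD dogs averaged 0.41 ± 0.50 (SD, n = 20), and healthy dogs averaged 0.12 ± 0.23 (SD, n = 8). The difference of 0.29 (SE 0.18, 95% interval -0.08 to 0.66) had an adjusted p of 0.866 in limma (unadjusted p = 0.121), with 14 of 20 AD dogs above the healthy mean. It was 0.03 with normexp background correction (limma adjusted p = 0.979), 0.04 in the channel of the dog alone and 0.12 with the share of probes well above background as a covariate.

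The 2 highest FOXP3 ratios, 1.89 and 1.16, and the lowest, -0.47, came from AD arrays on which FOXP3 was not well above background, all of scan day 5. On that day the median FOXP3 signal of AD dogs was 31.4, against 148.9 on the other days. In 15 AD dogs FOXP3 was well above background in the channel of the dog, whatever the reference channel showed. Among them its log2 ratio ran from -0.19 over 0.29 to 0.75, and 5 of them lay above every healthy dog. The spread then fell to an SD of 0.29. The difference from the 8 healthy dogs was 0.21, with p = 0.0898 in a two-sided exact permutation test. These dogs were chosen after seeing the values, and by the FOXP3 signal itself. The choice dropped only AD dogs, the 2 highest and the lowest among them. The smaller spread and this p therefore cannot decide whether the groups differ.

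IKZF2, which encodes Helios, depended on the probe. With the brighter probe its log2 ratio ran from -0.56 over 0.12 to 0.71 in AD dogs and from -0.40 over 0.01 to 0.64 in healthy dogs. The difference was 0.06 (SE 0.14, limma adjusted p = 0.949). With the dimmer probe 9 of 20 AD dogs lay below every healthy dog and 1 above, and the difference was -0.21 (SE 0.16, limma adjusted p = 0.867). That probe was well above background in 15 of 20 AD dogs, and in 2 of 6 on scan day 5.

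IKZF4, which encodes Eos, lay within the healthy range in most AD dogs. With the brightest probe its log2 ratio ran from -0.90 over -0.23 to 0.11 in AD dogs, and from -0.73 over -0.29 to 0.10 in healthy dogs. In 3 AD dogs, all on slide 1, it lay below every healthy dog. The difference was -0.06 (SE 0.14, limma adjusted p = 0.951). The other probe left by the filter differed by -0.04 (SE 0.14, limma adjusted p = 0.970). It was not well above background on any array of scan day 5.

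IL2RA, the CD25 chain by which regulatory T cells are sorted, varied more between dogs than between groups. With the brighter probe its log2 ratio ran from -0.89 over -0.01 to 0.81 in AD dogs and from -0.70 over 0.09 to 1.08 in healthy dogs. No AD dog lay above the highest healthy dog, which stood at 1.08, and 2 lay below the lowest. The difference was -0.09 (SE 0.20, limma adjusted p = 0.948). The overlapping dimmer probe gave -0.26 (SE 0.18, limma adjusted p = 0.866).

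CTLA4, the receptor that takes B7 ligands away from CD28, ran from -0.82 over -0.14 to 0.52 in AD dogs and from -0.55 over -0.04 to 0.59 in healthy dogs with the brighter probe. The groups shared nearly the whole range. The difference was -0.03 (SE 0.17, limma adjusted p = 0.984), and -0.12 (SE 0.20, limma adjusted p = 0.921) with the dimmer probe. Within AD dogs the brighter probe had a median of 0.35 on scan day 5 and of -0.33 on the other days. Without scan day 5 the difference was -0.18 (limma adjusted p = 0.720).

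TNFRSF18 was fitted only without the filter. Its log2 ratio averaged 0.25 ± 1.01 (SD, n = 20) among AD dogs, and -0.03 ± 0.42 (SD, n = 8) among healthy dogs. This was the widest spread of any member gene in AD dogs, and the gene was the one least often well above background. The difference was 0.28 (SE 0.35, limma adjusted p = 0.897).

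IL10, the main suppressive cytokine of the list, ran from -0.35 over 0.37 to 1.75 in AD dogs and from -0.21 over 0.26 to 0.55 in healthy dogs. In 7 AD dogs it lay above every healthy dog and in 1 below. The 7 were AD dogs 15, 16, 19 and 20, all of scan day 5, AD dog 14, and AD dogs 6 and 12. The array of AD dog 14 was the one of scan day 4 with 60.2% of probes well above background. Both the highest dog (1.75) and the lowest (-0.35) were of scan day 5. The means were 0.45 ± 0.49 (SD, n = 20) and 0.22 ± 0.23 (SD, n = 8), a difference of 0.24 (SE 0.18, limma adjusted p = 0.867).

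The IL10 difference had the opposite sign without the common reference. In the reference channel, which held the same RNA on every array, the quantile normalized IL10 signal was lower by 0.39 (log2) on the arrays of AD dogs (limma adjusted p = 0.0265). In the channel of the dog alone IL10 differed by -0.25, AD minus healthy (limma adjusted p = 0.433), in a fit that called 4.14% of all probes and no member. In the reference channel 39.1% of all probes were called at 0.085, so such shifts were common.

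ENTPD1, the CD39 enzyme, ran from -0.52 over 0.05 to 1.15 in AD dogs and from -0.67 over -0.06 to 0.70 in healthy dogs. In 2 AD dogs it lay above every healthy dog. The difference was 0.15 (SE 0.18, limma adjusted p = 0.891). In the reference channel alone its signal was higher by 0.31 on the arrays of AD dogs (limma adjusted p = 0.00264), and in the channel of the dog alone by 0.46 (limma adjusted p = 0.231).

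**Figure D2:**
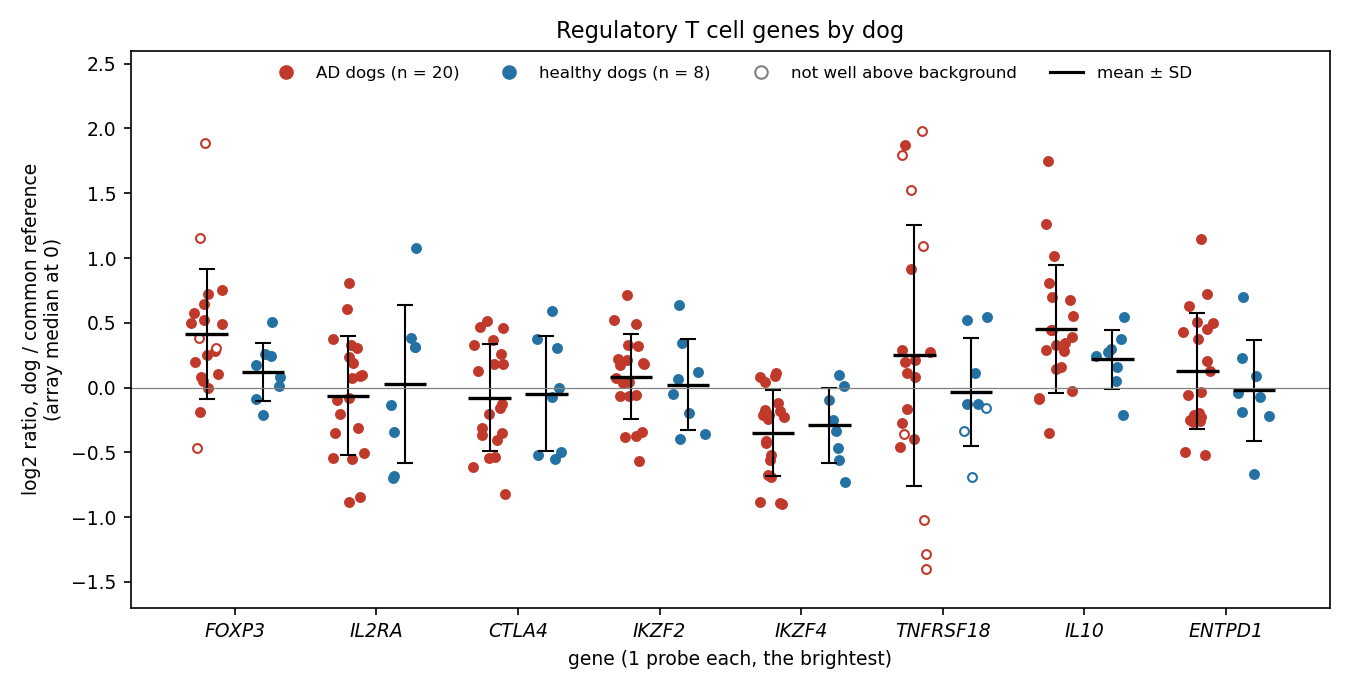
Log2 ratio of dog to common reference for each regulatory T cell gene, 1 point for each dog (20 AD, 8 healthy), with the mean and SD of each group. Open circles were not well above background. The groups overlap for every gene, and the outermost FOXP3 and most outermost TNFRSF18 values are open circles.

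**Figure D3:**
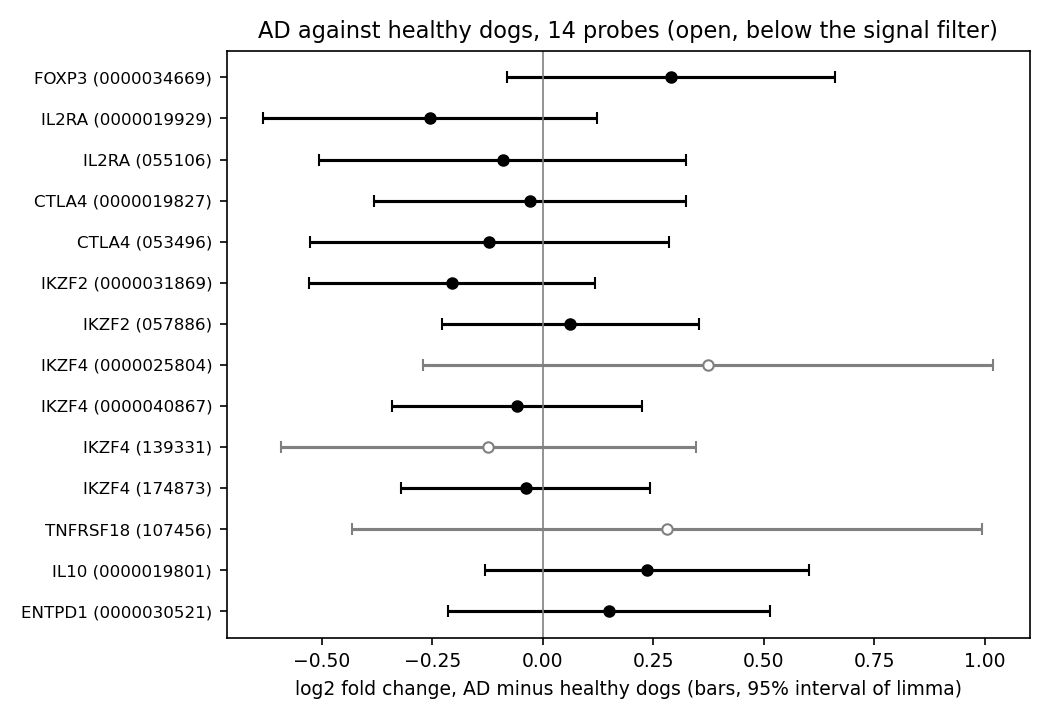
Log2 fold change, AD minus healthy dogs, for the 14 probes with the 95% interval of limma. Filled points passed the signal filter and open ones did not. Every interval includes 0, and the IKZF2 probes point to opposite sides.

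The genes around the members were taken from 5 wider lists of 48 genes, of which 37 were on the array and 35 were left by the filter. Limma called 0 of the 35, beside 0% of all probes. An unadjusted p under 0.05 was reached by 0 of the 35, beside 6.12% of all probes. The log2 fold changes were above 0 for 18 and below for 17. In the IL-2 axis, IL2RG, the common receptor chain, stood at a log2 fold change of 0.26 (unadjusted p = 0.0881). STAT5A, which carries the IL-2 signal, stood at 0.14 (p = 0.285 in limma) and STAT5B at -0.07 (p = 0.588 in limma). The median of the 6 measured genes of this axis was -0.03.

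Among 10 measured transcription factors of T cell subsets, 7 lay below 0. IRF4, needed for effector regulatory T cells, stood at -0.32 (limma unadjusted p = 0.182), GATA3, the Th2 factor, at -0.18 (p = 0.221) and PRDM1, which encodes Blimp-1, at -0.13 (p = 0.361). Of 8 costimulation and checkpoint genes, CD80, a ligand of CTLA4, stood at -0.31 (limma unadjusted p = 0.0874, adjusted p = 0.865). ICOS, a costimulatory receptor, stood at -0.25 (p = 0.120 in limma), and CD28, the competitor of CTLA4, at 0.48 (p = 0.176 in limma).

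In the list of IL-10, TGF-beta and adenosine genes 6 of 7 measured genes lay above 0, with a median of 0.15. TGFBR2, a TGF-beta receptor, stood at 0.15 (limma unadjusted p = 0.147), ADORA2A, the receptor for the adenosine made downstream of CD39, at 0.17 (p = 0.169), and EBI3, a subunit of IL-35, at -0.14 (p = 0.267). Of 4 homing genes, CCR8, a chemokine receptor of Th2 and regulatory T cells, stood at 0.28 (limma unadjusted p = 0.241), and CCR4, a receptor of skin-homing T cells, at 0.13 (p = 0.358).

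The second question was whether the members moved together from dog to dog. Pairs among the 7 genes and a T cell level, the mean log2 ratio of CD3D, CD3E and CD3G, gave 28 correlations in each group. All 56 were adjusted together (Benjamini-Hochberg), from 100000 permutations for AD dogs and every permutation for healthy dogs, an exact permutation test. Only 1 passed at an adjusted p of 0.05, and none of the pairs of 2 member genes did. The median r was 0.06 in AD and 0.09 in healthy dogs.

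CTLA4 followed the T cell level in AD dogs, with r = 0.730 (permutation p = 0.00027, adjusted p = 0.0151, n = 20) and rho = 0.692 (permutation p = 0.00079, adjusted p = 0.0442). Without the 2 dogs farthest from the CTLA4 median r was 0.785. After the mean of each slide was removed r was 0.586, with a permutation p of 0.00692 and an adjusted p of 0.0698. Without scan day 5 r was 0.781 with an adjusted permutation p of 0.0625. With normexp background correction r was 0.555 with an adjusted permutation p of 0.431. In the 8 healthy dogs r was 0.531 (exact permutation p = 0.183), and 0.292 without the 2 farthest dogs. With the mean of both CTLA4 probes r in healthy dogs was 0.924 (exact permutation, adjusted p = 0.0201), although these 2 probes had an r of only 0.187 with each other there.

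FOXP3 had no r past the threshold with the T cell level, at -0.223 in AD dogs (permutation p = 0.351) and 0.064 in healthy dogs (exact permutation p = 0.881). With slide means removed the r in AD dogs was -0.520 (permutation p = 0.0193, adjusted p = 0.155). ENTPD1 ran against it in AD dogs, with r = -0.514 (permutation p = 0.0206, adjusted p = 0.385). With slide means removed that r was -0.580 (permutation p = 0.00748, adjusted p = 0.0698). IKZF4 stood at r = 0.462 with the T cell level in AD dogs (permutation p = 0.0402, adjusted p = 0.451), and at 0.187 with slide means removed.

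FOXP3 and IL10 had the highest r of any pair, in healthy dogs. There r was 0.917 (exact permutation p = 0.00223, adjusted p = 0.0625, n = 8) and rho 0.810 (exact permutation p = 0.0218, adjusted p = 0.406). Among 30201 probes ranked by r with FOXP3 in these 8 dogs IL10 held place 552, so many other probes followed FOXP3 more closely. Healthy dog 1 was highest for both genes, at 0.51 for FOXP3 and 0.55 for IL10, and healthy dog 3 lowest for both, at -0.21 and -0.21. Without each dog in turn r lay between 0.876 and 0.964, without the 2 farthest dogs it was 0.747, and with slide means removed 0.922. In the 20 AD dogs the r of this pair was 0.197 (permutation p = 0.394), and -0.041 (permutation p = 0.885) in the 15 with FOXP3 well above background. The difference between the groups was not tested.

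FOXP3 and IL2RA, the pair by which these cells are recognised, had no r past the threshold in either group. The r was 0.098 in AD dogs (permutation p = 0.685) and -0.601 in healthy dogs (exact permutation p = 0.113). In the 15 AD dogs with FOXP3 well above background it was -0.179 (permutation p = 0.522). FOXP3 with CTLA4 gave -0.138 in AD dogs (permutation p = 0.576) and -0.506 with slide means removed (permutation p = 0.0227, adjusted p = 0.159).

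**Figure D4:**
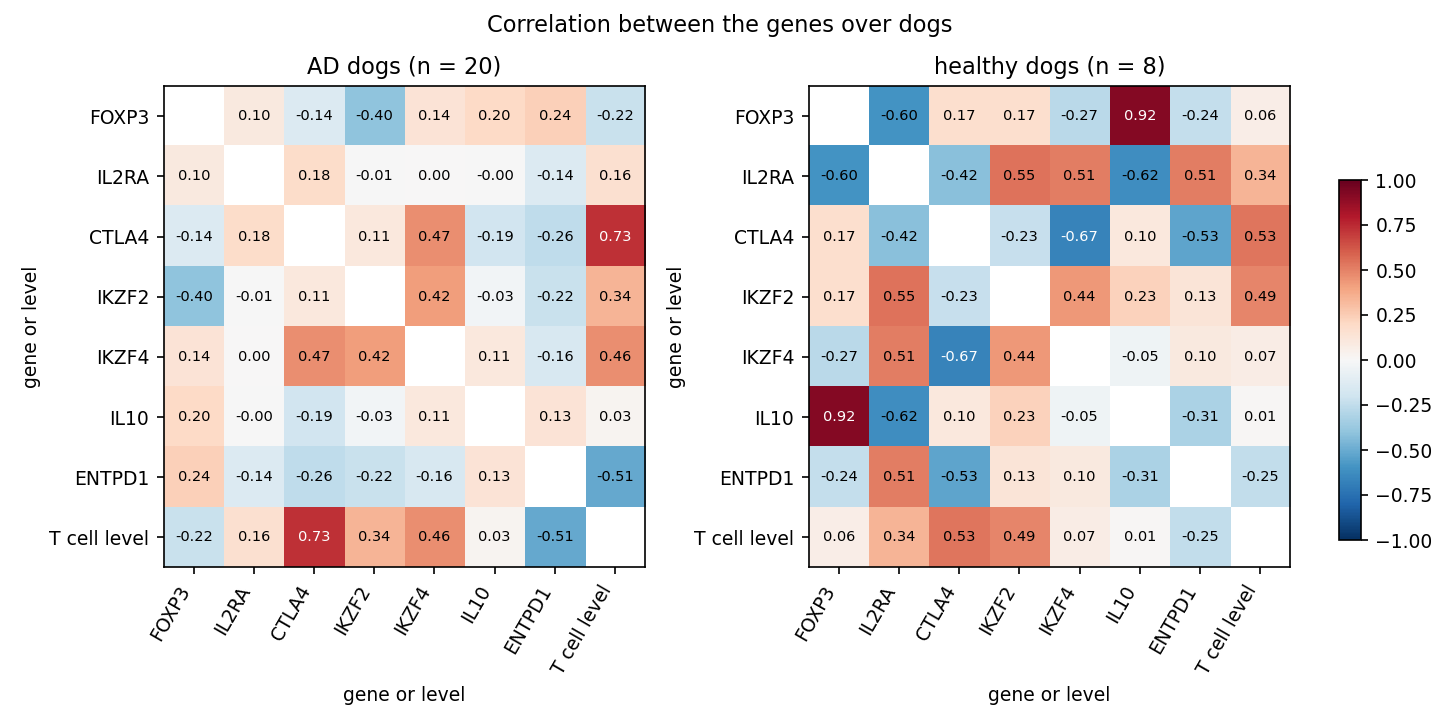
Pearson's r over dogs between the 7 genes and the T cell level, in 20 AD dogs (left) and 8 healthy dogs (right), from -1 (blue) to 1 (red). The darkest cells are CTLA4 with the T cell level in AD dogs and FOXP3 with IL10 in healthy dogs.

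**Figure D5:**
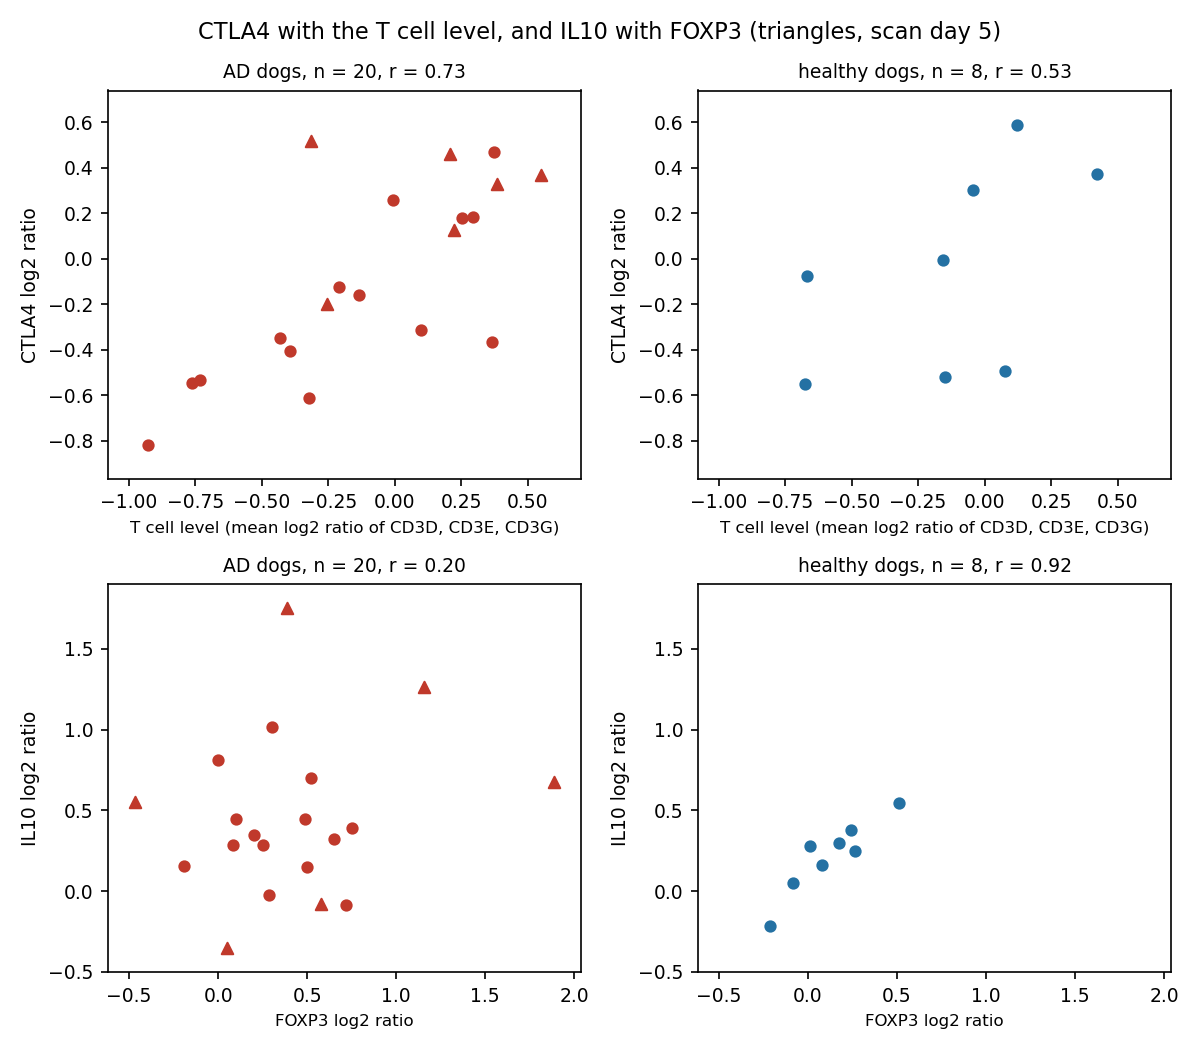
Log2 ratios of single dogs: CTLA4 against the T cell level (top) and IL10 against FOXP3 (bottom), AD dogs left and healthy dogs right, with triangles for scan day 5. CTLA4 climbs with the T cell level in AD dogs, and the 8 healthy dogs lie near a line in FOXP3 and IL10, where the AD dogs scatter.

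Probes of the same gene show how far such a correlation can be read. The overlapping IL2RA probes gave r = 0.978 in healthy dogs (exact permutation, adjusted p = 0.00108 over 8 pairs) and 0.718 in AD dogs (permutation, adjusted p = 0.00108). The CTLA4 probes gave 0.677 in AD dogs (permutation, adjusted p = 0.00355) and 0.187 in healthy dogs (exact permutation, adjusted p = 0.829). The IKZF2 probes gave 0.325 in AD dogs (permutation, adjusted p = 0.326) and the IKZF4 probes 0.018 (permutation, adjusted p = 0.939). In healthy dogs the IKZF2 pair stood at -0.156 and the IKZF4 pair at -0.378 (exact permutation, adjusted p = 0.829 and 0.562). For neither Ikaros gene did its pair of probes pass, in either group. The brighter IKZF2 probe had an r of 0.407 with the IKZF3 probe printed beside it in AD dogs (permutation p = 0.0736) and 0.614 in healthy dogs (exact permutation p = 0.107). The adjusted p of both was 0.213 over 4 pairs, a comparison made after seeing the values.

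CD4, although a T helper cell receptor, had a negative r with the T cell level in AD dogs that did not pass the threshold. That r was -0.376 (permutation p = 0.102, adjusted p = 0.513 over 32 relations). The r of CD4 with CTLA4 in AD dogs was -0.571 (permutation p = 0.00895, adjusted p = 0.143). With IKZF4 it was -0.612 (permutation p = 0.00424, adjusted p = 0.136), and with FOXP3 0.141 (permutation p = 0.554). IL10 had an r of -0.495 with the share of probes well above background in AD dogs (permutation p = 0.0250, adjusted p = 0.267), and FOXP3 one of -0.299 (permutation p = 0.205).

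The probes most like FOXP3 over the 20 AD dogs were not members. By r, with no test, those named here from the first 5 with a gene symbol were PLA2G1B, a secreted phospholipase A2 (0.835), SLC45A4, a solute carrier (0.832), TDO2, a tryptophan-degrading enzyme (0.830), and ARPP21, a phosphoprotein (0.819). In healthy dogs their r with FOXP3 was -0.07, -0.42, 0.46 and -0.02, in that order. In the 15 AD dogs with FOXP3 well above background it was 0.643, 0.768, 0.447 and 0.495. Of 30201 probes IL10 held place 8919 by likeness to FOXP3 in AD dogs and place 552 in healthy dogs. ENTPD1 held place 7800 in AD dogs, the brighter IL2RA probe place 12063, the brighter CTLA4 probe place 20425 and the brighter IKZF2 probe place 28093.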

How the data were processed

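The authors extracted spot intensities with Agilent Feature Extraction 10.7.3.1 per the labels, which subtracted background and applied Lowess dye normalization. The deposited log10 ratios are the same channels' ratio, and the series table repeats them. Starting from the processed intensities on a linear scale, R 4.3.3 and limma 3.58.1 were used. Marked outlier spots were set to missing and spots of 1 probe averaged. A filter built from the description in the study's methods removed probes that no array showed well above background in the dog or reference channel, and probes whose median intensities in both channels and groups were all at most 100. It kept more probes than the study's own filter, whose exact steps are not given in the sources used here. Log2 ratios were centered on each array's median over the probes left. AD and healthy dogs were compared with lmFit and eBayes, Benjamini-Hochberg adjusted. A gene was represented by its brightest probe. In the wider lists and markers, 9 probes were matched by description or RefSeq accession. Named from the wider lists were the 3 genes of each with the smallest p, and the 5 genes most like FOXP3, of which some are not reported here. Both groups' values come from 1 sample and 1 array per dog. The spread behind the p-values therefore mixes differences between dogs with those between arrays, slides and scan days. The number of arrays limits the precision. Members, lists and tests were chosen with earlier results of these data known. The fit and the correlations were tested on simulated data. Correlations used Python 3.11.15, numpy 2.4.6 and scipy 1.17.1. Alternatives varied the filter, background correction, centering, channel, source, slide, scan day, weights, covariates, variance model, probe and dogs. The protein and promoter sequences were not used here.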

Additional observations from a re-analysis of the deposited data

How the results depend on the processing

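No member and no gene of the wider lists was called under any alternative run in limma, and FOXP3 stayed above 0 throughout (0.03 to 0.36). Over all probes 3 were called with no filter, 1 with the filter of at least 8 arrays, 1251 with the channel of the dog alone and 849 with array weights. The other members changed sign: with normexp, CTLA4 stood at 0.0392, IKZF4 at 0.00772, IL10 at -0.0279 and ENTPD1 at -0.0197. With the channel of the dog alone, IL2RA stood at 0.0811 and IL10 at -0.251. With the share of probes well above background as a covariate, IL10 stood at -0.0380 and ENTPD1 at -0.0331. With the mean of both probes IKZF2 stood at -0.0714. Leaving out each slide in turn gave -0.176 to 0.117 for CTLA4, -0.0410 to 0.341 for ENTPD1, -1.16e-06 to 0.124 for IKZF2, -0.182 to 0.0633 for IKZF4 and -0.332 to 0.150 for IL2RA. IL2RA stood at 0.15 and CTLA4 at 0.12 without slide 2. The causes were not tested.

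The number of correlations passing in AD dogs was 0 with normexp, with slide means removed and without scan day 5, and 0 to 1 with each AD slide left out (0 without slide 1, 5, 6 or 7), where CTLA4 with the T cell level gave r of 0.663 to 0.793. In healthy dogs 1 passed without centering (FOXP3 with IL10) and 2 with the mean of all probes of a gene (FOXP3 with IL10, and CTLA4 with the T cell level). The r of FOXP3 with IL10 in healthy dogs was lower with normexp, at 0.796 (exact permutation, adjusted p = 0.431). It was 0.746 with the channel of the dog alone (adjusted p = 0.488) and 0.747 without the 2 farthest dogs (adjusted p = 0.474). The r of FOXP3 with IL2RA in AD dogs was -0.137 with normexp, -0.288 with the channel of the dog alone, -0.044 without scan day 5, -0.179 in the dogs with FOXP3 well above background (chosen after seeing the data) and -0.054 to 0.238 with slides left out. That of FOXP3 with IL10 was -0.047 without the 2 farthest dogs, -0.147 without scan day 5 and -0.041 in the dogs with FOXP3 well above background. That of FOXP3 with CTLA4 was -0.311 to 0.062 with slides left out.

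Dog numbers name different animals in each group, and deviations of the 8 same-numbered pairs correlated between -0.36 and 0.42. With the number as a replicate block 0 probes were called, and FOXP3 stood at 0.22, CTLA4 at -0.30 and IKZF4 at -0.26. Only AD dogs that share a number with a healthy dog enter these differences. They therefore compare 8 of the 20 AD dogs, none of scan day 5, with the 8 healthy dogs. Signal over background limits FOXP3, TNFRSF18 and the dimmer IKZF2 and IKZF4 probes.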
